A study of Mus musculus with 82 samples.

Results

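Histone lysine methyltransferases and demethylases were followed across hematopoietic stem cells (HSCs) of young and old mice, old HSCs carrying a short hairpin RNA (shRNA), and 3 kinds of young myeloid progenitor. The members were chosen by gene symbol alone, as the genes named Kmt, Kdm, Setd, Setdb, Nsd, Suv39h, Ehmt or Smyd with a number, together with Ash1l and Dot1l, and the Ezh genes were not taken. The rule found 52 of the 55376 genes in the count tables. They comprise 32 methyltransferases and other SET or SMYD genes, 18 demethylases, the pseudogene Kdm4dl and the antisense RNA Kdm6bos. Kdm4dl is annotated as an unprocessed pseudogene next to Kdm4d on chromosome 9 (chr9:14450836-14452022 and chr9:14462548-14500482, mm10), so reads of this pair may be shared. Kdm6bos (chr11:69401513-69402700) lies within Kdm6b (chr11:69398508-69413675) on the other strand, and the strand setting of the counting is not given, so reads of the pair cannot be told apart.

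The age comparison used 4 RNA libraries of young and 8 of old HSCs from male C57BL/6J mice, sorted for CD150+ and for the lack of CD34 and Flk2 within the LSK (Lin-Sca-1+c-kit+) compartment. Each young library pooled several mice and each old library came from 1 mouse, so differences between single young animals are averaged within a library. For the knockdown, old HSCs were transduced in culture with lentivirus carrying a control shRNA, Btaf1 shRNA1 or Btaf1 shRNA2, with 2 libraries of each, and either sorted after culture or transplanted into irradiated CD45.1 recipients and re-isolated from pools of recipients as GFP+ LSK CD48-CD150+CD45.2+ cells, again with 2 libraries of each. Both shRNAs were designed against a shorter variant of Btaf1, a TATA box-binding protein-associated factor, and gene counts do not separate that variant from the full-length one. Common myeloid progenitors (CMP), granulocyte-monocyte progenitors (GMP) and megakaryocyte-erythroid progenitors (MEP) of young wild-type mice gave 2 libraries each. The transplant libraries are thus pools of recipients, and whether the libraries of a group came from separate cultures or mice was not given for the cultured cells and the progenitors, where p-values measure the spread between these libraries, which may be technical. Libraries held 20475764 to 24654742 reads on genes in the age comparison, 37292602 to 42737054 in culture, 37601706 to 42142361 after transplant and 33177394 to 36510850 in progenitors.

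Members of these families add or remove methyl groups on lysines of the histone tails, and the position of the lysine decides how the mark is read. Methylation of H3K4 marks promoters and enhancers in use, H3K36 methylation marks transcribed gene bodies, and H3K9 and H3K27 methylation mark silent chromatin. Methyltransferases mostly carry a SET domain, Dot1l being the exception, whereas demethylases use either a flavin-dependent amine oxidase domain (Kdm1a, Kdm1b) or a JmjC domain. In blood, Kmt2a (MLL1) maintains Hox gene expression and HSC self-renewal, and Kdm1a (LSD1) works with Gfi1 and Gfi1b in erythroid and granulocytic differentiation. Some members are named after the domain and act on proteins other than histones, such as Setd3, a histidine methyltransferase of actin.

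Promoter sequence was at hand for 37 of the 52 members, with 49 starts, in a RefSeq table of 300 bases around each start (250 before, 50 after, GRCm38.p6). The median member promoter held 28 CG dinucleotides, against 7 over all 32851 promoters of the table. The motif TATAAA, searched on both strands, was found in 4.08% of the members' promoters and in 13.6% of all promoters. The 2 members with a match were Smyd1 and Kdm5d. Smyd1, a heart and muscle gene that was almost silent here, is shown beside Smyd4 and Setd3, whose promoters are rich in CG and lost accessibility with age. Capitals mark CG dinucleotides and, in Smyd1, the TATAAA match of the other strand.
Smyd1 (chr6:71262232-71262531, minus strand): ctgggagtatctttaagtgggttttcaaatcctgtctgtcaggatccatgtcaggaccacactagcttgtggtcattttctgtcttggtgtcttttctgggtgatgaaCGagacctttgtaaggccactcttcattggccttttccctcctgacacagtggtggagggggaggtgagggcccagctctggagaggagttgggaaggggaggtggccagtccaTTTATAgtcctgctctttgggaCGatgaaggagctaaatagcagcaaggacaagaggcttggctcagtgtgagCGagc
Smyd4 (chr11:75348183-75348482, plus strand): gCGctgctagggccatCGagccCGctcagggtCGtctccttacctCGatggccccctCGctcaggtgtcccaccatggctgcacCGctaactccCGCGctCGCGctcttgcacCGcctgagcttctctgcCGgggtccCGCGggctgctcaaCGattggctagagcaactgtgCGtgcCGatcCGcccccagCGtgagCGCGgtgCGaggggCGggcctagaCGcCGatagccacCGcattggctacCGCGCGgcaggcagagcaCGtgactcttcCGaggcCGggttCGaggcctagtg
Setd3 (chr12:108179235-108179534, minus strand): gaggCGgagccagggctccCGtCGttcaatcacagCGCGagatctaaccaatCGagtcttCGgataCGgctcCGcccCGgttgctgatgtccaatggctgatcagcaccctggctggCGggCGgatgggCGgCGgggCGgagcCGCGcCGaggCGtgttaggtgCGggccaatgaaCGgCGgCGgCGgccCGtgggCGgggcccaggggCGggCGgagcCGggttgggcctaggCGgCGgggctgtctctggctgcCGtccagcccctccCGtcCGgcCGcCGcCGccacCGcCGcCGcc
The 3 windows held 3, 34 and 40 CG dinucleotides. The match in Smyd1 starts 28 bases before the RefSeq start, which lies inside the gene as GENCODE M21 annotates it (chr6:71213940-71322233). This window also sat inside a broad H3K27me3 domain of young HSCs (chr6:71159000-71268999, signal 0.383 and 0.376 in the 2 young libraries).

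Together the members made up 0.453 to 0.460% of the counts of young HSC libraries and 0.426 to 0.442% of those of old ones, so every old library was below every young one. After TMM scaling their summed level was 4356 to 4574 CPM (counts per 1e6 of the TMM-scaled library total) in young HSCs and 4341 to 4568 CPM in old HSCs, so the ranges of the ages overlapped. The sums were 3695 to 3861 CPM in culture, 3728 to 4160 CPM after transplant, 3392 to 3491 CPM in CMP, 3171 to 3299 CPM in GMP and 3409 to 3469 CPM in MEP. These experiments were normalized separately, so the sums are set side by side without a test. Divided by exon length, the highest member of young HSCs was Smyd2, a methyltransferase of p53 and other non-histone proteins, at 49.8 ± 0.325 CPM per kb (SD, n = 4). It was followed by Kdm1a at 23.7 ± 1.10 and the trithorax-like Kmt2e at 21.1 ± 0.634 CPM per kb. The lowest were Kdm4d at 0.474 ± 0.104, Kdm4dl at 0.118 ± 0.0637 and Smyd1 at 0.118 ± 0.0189 CPM per kb. In MEP the order was led by Kmt5a, the H4K20 monomethyltransferase of dividing cells, at 52.9 ± 1.22 CPM per kb (SD, n = 2), followed by Setd6 at 43.8 ± 1.51 and Smyd2 at 42.0 ± 0.168 CPM per kb.

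The first comparison asked how the genes differ between young and old HSCs. At an adjusted p below 0.05 over all genes, 4 of 51 members tested were higher in old HSCs, where 11.9% of all genes were, and 7 were lower, where 8.67% of all genes were. The changes were small: none passed a fold change of 1.5, where 7.52% of all genes did, 19 of 51 members and 30.0% of all genes were at an unadjusted p below 0.05, and the median log2 fold change was -0.03 over the members against -0.01 over all genes. The H3K36 methyltransferase Nsd2, both SMYD genes called and Setd3 were higher, whereas 4 demethylases, Kmt2a, Dot1l and Setd4 were lower. Old and young libraries did not overlap for 11 of 51 members, a pattern found in 13.9% of all genes; they were the called members other than Dot1l, and Kdm6bos. The remaining 40 members were not called by edgeR, and Kdm4dl was too low to be tested.

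Nsd2, which places H3K36me2, had the largest change. Its level was 113, 116, 107 and 121 CPM in the 4 young libraries and 142 to 162 CPM in the 8 old libraries, with a median of 151. Every old library was above every young library, and the log2 fold change was 0.41 ± 0.05 (SE; edgeR adjusted p = 3.76e-07). No other H3K36 methyltransferase was called: the H3K36me3 writer Setd2 had a log2 fold change of -0.08 (adjusted p = 0.228), with 135 to 141 CPM in young and 117 to 143 CPM in old libraries. Nsd1, Nsd3 and Ash1l had log2 fold changes of -0.08, 0.01 and -0.02.

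Among the genes with unsettled or non-histone substrates, Smyd4 read 20.7, 18.9, 17.8 and 19.0 CPM in young libraries and 21.2 to 25.0 CPM in old libraries, with a median of 22.9. The groups did not overlap, and the log2 fold change was 0.27 ± 0.07 (adjusted p = 0.00534). Smyd2 was even across the young libraries, at 136, 134, 136 and 136 CPM, and ran from 139 to 155 CPM in old libraries (median 150; log2 fold change 0.14 ± 0.04, adjusted p = 0.0114). Setd3 read 103, 96.3, 106 and 102 CPM in young and 109 to 117 CPM in old libraries (median 113; log2 fold change 0.15 ± 0.04, adjusted p = 0.00607). For both genes the lowest old library stood above the highest young one. Setd4 moved the other way, with 12.02, 14.6, 12.4 and 14.9 CPM in young and 9.12 to 11.97 CPM in old libraries (median 11.1; log2 fold change -0.31 ± 0.09, adjusted p = 0.0140). Its lowest young and highest old library lay next to each other without crossing, and the call was lost without young replicate 2 (adjusted p = 0.0676) or 4 (adjusted p = 0.0962).

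No demethylase was higher in old HSCs, where 11.9% of all genes were, and 4 of 18 tested were lower, where 8.67% of all genes were. Kdm7a, which removes H3K27me2 and H3K9me2, read 56.6, 58.8, 56.6 and 67.1 CPM in young and 40.8 to 53.2 CPM in old libraries (median 47.6). All old libraries were below all young ones, with a log2 fold change of -0.32 ± 0.06 (adjusted p = 0.000517). The other 3 act on H3K9, and Kdm4a and Kdm4b on H3K36 as well. Kdm4b read 85.4, 83.9, 83.3 and 84.2 CPM in young against 67.7 to 80.7 CPM in old libraries (median 72.2; log2 fold change -0.20 ± 0.05, adjusted p = 0.00776). Kdm4a read 65.7, 60.5, 62.9 and 63.1 CPM against 51.7 to 57.3 CPM (median 55.9; log2 fold change -0.19 ± 0.05, adjusted p = 0.00294). Kdm3a read 113, 109, 109.5 and 118 CPM against 90.2 to 105 CPM (median 100.2; log2 fold change -0.17 ± 0.04, adjusted p = 0.00627). None of the 3 overlapped between ages. The 6 H3K4 demethylases had log2 fold changes between -0.03 and 0.03 and none was called, with the lowest adjusted p at 0.624.

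The H3K27me3 demethylases gave no call. Kdm6a (UTX) read 77.6 to 90.6 CPM in young and 82.1 to 93.1 CPM in old libraries (log2 fold change 0.02, adjusted p = 0.879). Kdm6b (JMJD3) read 14.8, 14.5, 12.3 and 13.3 CPM in young and 10.3 to 14.7 CPM in old libraries, with a log2 fold change of -0.20 ± 0.09 (adjusted p = 0.130). Old replicate 8 was the highest old library for Kdm6b, and without it the gene was called lower (log2 fold change -0.24, adjusted p = 0.0413).

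Of 8 genes grouped as H3K4 methyltransferases, Kmt2a was called. It read 225, 214, 226 and 216 CPM in young and 190 to 214 CPM in old libraries (median 203; log2 fold change -0.12 ± 0.04, adjusted p = 0.0264). Its groups met at 214 CPM without crossing, and the call was lost without young replicate 1, 3 or 4 or old replicate 5 (adjusted p = 0.111, 0.128, 0.0558 and 0.0509). The other genes of this group had log2 fold changes from -0.15 for Setd1a to 0.08 for Setd7. Dot1l, the only H3K79 methyltransferase, read 46.0, 42.2, 39.0 and 41.0 CPM in young and 29.4 to 41.0 CPM in old libraries (median 33.9; log2 fold change -0.28 ± 0.08, adjusted p = 0.00934). Here the groups overlapped, and the call was lost without young replicate 1 (adjusted p = 0.0589). None of the 6 H3K9 methyltransferases was called by edgeR, with 1 of them at an unadjusted p below 0.05, and log2 fold changes ran from -0.11 for Suv39h1 (adjusted p = 0.0858) to 0.18 for Suv39h2 (adjusted p = 0.191). DESeq2 called Suv39h1 lower (adjusted p = 0.0371). Without the filter on low counts, which widened the set of genes tested, Smyd2, Kdm3a, Kdm4a and Kmt2a lost their call, with an adjusted p from 0.0554 for Kdm4a to 0.335 for Kmt2a.

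**Figure D1:**
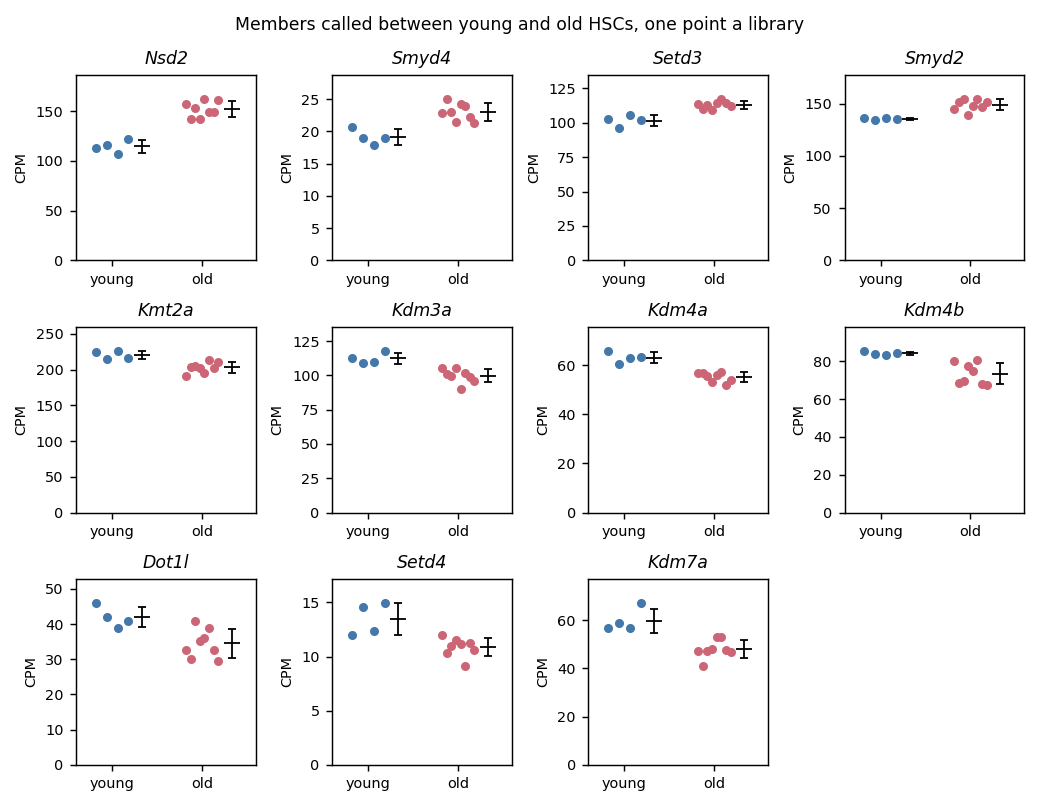
Level of the 11 members called between ages, in CPM from 0 on each vertical axis, with one point for each of 4 young and 8 old HSC libraries and bars for the mean ± SD. Nsd2 stands apart, with 107 to 121 CPM in young and 142 to 162 CPM in old libraries, while the points of Dot1l overlap at 39.0 to 41.0 CPM.

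Partner genes were read from fixed lists. None of 11 COMPASS and MLL complex subunits tested was called by edgeR at an adjusted p below 0.05, and 5 of them were at an unadjusted p below 0.05; no DESeq2 count was made for these lists. Of 10 LSD1 and CoREST partners, the corepressor Rcor2 fell by 0.41 on the log2 scale (adjusted p = 3.33e-06) and Hmg20b was higher by 0.20 (adjusted p = 0.0103). Of 7 heterochromatin readers and SETDB1 partners, Trim28 was lower (log2 fold change -0.13, adjusted p = 0.0179). Of 15 JmjC and PRDM genes outside the rule, Jmjd1c, Jmjd6 and Hif1an were lower (log2 fold changes -0.15, -0.17 and -0.17) and Prdm16 was higher (0.14).

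The sorted cells carried HSC markers at both ages: the 8 genes of that list summed to 1696 to 1827 CPM in young and 1727 to 2051 CPM in old libraries. Markers of other cells moved with age. Of 8 B cell markers 7 were lower in old HSCs, with sums of 86.5 to 159 CPM in young and 36.6 to 45.4 CPM in old libraries, and none was at 0 in either group. Of 12 cell cycle genes 4 were lower (Cdk1, Mcm2, Mcm3 and Mcm5), with sums of 861 to 928 CPM in young and 593 to 766 CPM in old libraries. Of 6 megakaryocyte markers tested 3 were higher and 2 lower, with sums of 1670 to 1759 CPM in young and 2041 to 2408 CPM in old libraries. Of 7 granulocyte and monocyte markers tested 1 was higher and 1 lower, with sums of 143 to 274 CPM in young and 308 to 408 CPM in old libraries. Of 8 erythroid markers 3 were higher and 4 lower, with sums of 157 to 224 CPM and 50.2 to 223 CPM, and of 4 T and NK cell markers tested 2 were higher, of 3 plasma cell markers tested 1 was lower, and of 7 stress genes tested 1 was higher and 2 were lower. The part of these in the changes of the members was not tested, and in sorted bulk samples fewer cells of a type and less RNA per cell cannot be told apart.

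Chromatin accessibility was measured by ATAC-seq in 4 young and 4 old HSC libraries of 15427933 to 26260337 reads in regions. A region within 1000 bp upstream to 100 bp downstream of a start was tested for 47 members, and the strongest one stood for the gene. At an adjusted p below 0.01, 21 of 47 were less accessible in old HSCs and none was more accessible by edgeR. With any 1 library left out, 13 to 17 were less accessible. DESeq2 called 19 lower and 0 higher, where it called 26.2% of all promoter regions lower and 3.48% higher, and at an unadjusted p below 0.05 edgeR had 32 members lower, where 48% of all promoter regions were, and 1 member higher, Setdb1, where 6.44% were. Among all promoter regions of protein-coding genes 27.1% were lower and 3.71% higher, and among all regions 9.53% were lower and 13.7% higher. The median log2 fold change was -0.17 over the members, -0.14 over all promoter regions and -0.01 over all regions, and no member passed a fold change of 1.5. Libraries of the ages did not overlap at 27 of the 47 regions, a pattern found in 39.1% of all promoter regions and 29.9% of all regions.

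The largest drop was at Smyd4 (region chr11:75348102-75348919), which read 30.0, 30.4, 26.9 and 30.1 CPM in young and 19.9, 19.4, 23.2 and 18.8 CPM in old libraries. The log2 fold change was -0.53 ± 0.07 (adjusted p = 1.89e-08), with all old libraries below the young ones. At Nsd1 (chr13:55210277-55212771) accessibility went from 64.9, 68.2, 69.2 and 64.7 CPM to 45.1, 45.1, 48.0 and 48.7 CPM (log2 fold change -0.51 ± 0.05, adjusted p = 6.03e-13). At Setd3 (chr12:108178774-108180041) it went from 111, 111, 109.7 and 108 CPM to 84.4, 74.1, 78.4 and 89.4 CPM (log2 fold change -0.43 ± 0.04, adjusted p = 1.28e-11). Neither region overlapped between ages. Kmt5b, an H4K20 methyltransferase, read 34.9 to 38.5 CPM in young and 23.6 to 27.7 CPM in old libraries (chr19:3767270-3769253; log2 fold change -0.50 ± 0.06, adjusted p = 2.43e-09). The regions of Kdm5a and Kmt2c each had a log2 fold change of -0.37 (adjusted p = 3.47e-05 and 5.27e-09). For Smyd4 and Setd3 the printed promoter windows lie in these regions, and their mRNA was higher in old HSCs, as given above; the RNA and ATAC-seq libraries are different samples. The region of Nsd2 did not change detectably (log2 fold change 0.05 ± 0.09, adjusted p = 0.692).

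The libraries differed in how their signal followed base composition. The correlation across regions of a library's log ratio to the mean with the GC content was 0.176 to 0.287 in the 4 young and -0.268 to -0.166 in the 4 old libraries. Member regions were rich in GC, with a median of 63.4% against 59.4% for all promoter regions and 48.2% for all regions. With a correction for GC content, chosen after these data were seen, 6 members were lower and 5 higher. Under this correction 9.32% of all promoter regions were lower and 7.03% higher, and 7.72% of all regions were lower and 11.9% higher. The median over the members became -0.02. The members lower in both fits were Smyd4, Nsd1, Kmt5b, Setd3, Kdm5a and Kmt2c, with corrected log2 fold changes of -0.38, -0.35, -0.33, -0.27, -0.26 and -0.20. Those higher after the correction were the H3K9 methyltransferase Setdb1 (0.41), Setd1a (0.23), Kmt2b (0.21), Setd6 (0.20) and Kdm3a (0.14). The correction took away 15 of the 21 calls. As the trend with GC content separated the ages, the correction also removes any age difference tied to GC content. Such a difference and a technical one cannot be told apart here.

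**Figure D2:**
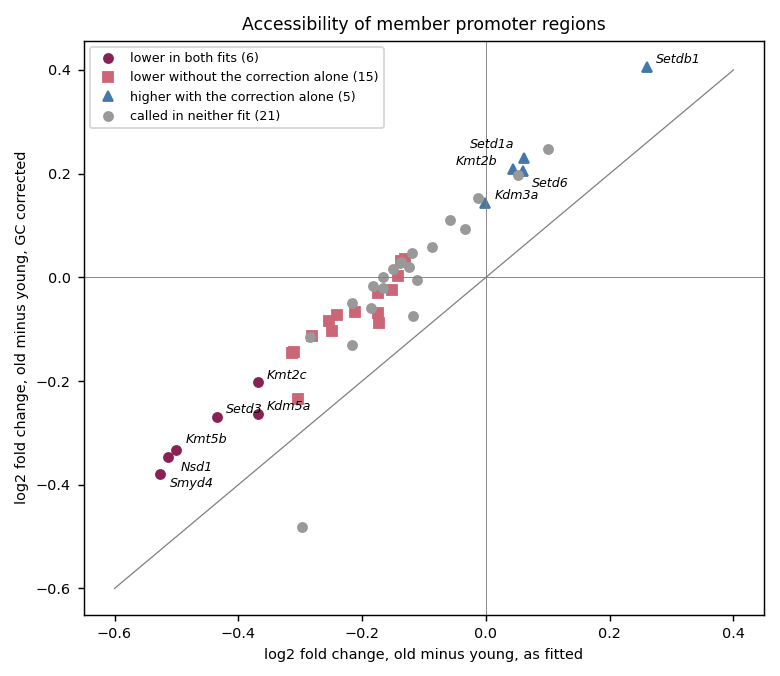
Log2 fold change of accessibility, old minus young HSCs, at the promoter region of 47 members, as fitted on the horizontal axis and with the GC correction on the vertical axis, with the line of equality. Most points lie above the line: 6 regions are lower in both fits, 15 lower without the correction alone and 5 higher with it alone.

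H3K27ac, a mark of active promoters and enhancers, was measured by ChIP-seq in 2 young and 2 old libraries and deposited as a signal per peak. A promoter peak was found for 42 members, and limma called none of them at an adjusted p below 0.05, where 2.03% of all peaks were called higher and 0.26% lower. The values over all peaks given here include peaks away from promoters. No share over promoter peaks alone was taken, so members and all peaks are unlike sets. At an unadjusted p below 0.05 there were 2 of 42 members, where 17.5% of all peaks were. Neither is a call, and their values are given as levels. The signal at Dot1l was 2.72 and 3.13 in young and 4.54 and 4.63 in old libraries (log2 difference 0.57 ± 0.17, adjusted p = 0.0996). At the stronger of 2 Kdm7a peaks it was 8.18 and 6.18 in young and 4.87 and 5.29 in old libraries (log2 difference -0.45 ± 0.18, adjusted p = 0.227). The groups did not overlap at either of these peaks. The second Kdm7a peak read 5.28 and 4.63 in young and 3.81 and 5.76 in old libraries, which overlapped (log2 difference -0.07). The median log2 difference was -0.02 over the members and 0.05 over all peaks, and neither sign was stable: the members' median ran from -0.13 to 0.07 over single pairs of an old and a young library, and the median of all peaks was -0.03 with libraries scaled to the same median and -0.02 without young replicate 2.

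In young HSCs 44 members had an H3K4me3 peak at a promoter. Its signal ran from 8.50 at Suv39h1 to 37.8 at Kmt2e, with a median of 23.1, against 5.37 over all 33199 peaks. The latter include peaks away from promoters, and a median over promoter peaks of all genes was not taken. The members without one were Ash1l, Kdm4dl, Kdm6bos, Nsd2, Setd4, Setdb2, Smyd1 and Suv39h2. A domain of H3K27me3, the mark of Polycomb repression, touched the promoter of 4 members: Kdm1b, Kdm4c, Smyd1 and Suv39h2. Its signal there was 0.288 to 0.491, and the median of all 55820 domains was 0.389. Kdm1b and Kdm4c also had H3K4me3, with signals of 18.3 and 27.8. At Kdm1b the domain spanned the H3K4me3 peak, whereas at Kdm4c the domain (chr4:74240000-74245999) and the peak (chr4:74251129-74252966) lay apart.

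The second comparison asked what followed the Btaf1 shRNAs in old HSCs. Btaf1 counts fell by 0.31 on the log2 scale in culture, from 138 and 142 CPM with control shRNA to 109 to 118 CPM with the Btaf1 shRNAs (edgeR adjusted p = 0.00151). After transplant Btaf1 read 161 and 166 CPM in controls and 118 to 139 CPM in knockdown libraries. The log2 fold change was -0.37 ± 0.08 (edgeR unadjusted p = 0.000891, adjusted p = 0.791). The groups did not overlap in either experiment.

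No member was called in culture by edgeR as fitted. At an adjusted p below 0.05 edgeR called 0 of 50 members tested, where 3.36% of all genes were called, and at an unadjusted p below 0.05 with a fold change above 1.5 it called none, where 3.42% of all genes were. At an unadjusted p below 0.05 alone there were 9 of 50 members and 15.3% of all genes, and DESeq2 called 1 member, where it called 6.44% of all genes. Control and shRNA libraries did not overlap for 13 of 50 members and for 25.9% of all genes. The gene nearest to a call was Kmt2d (MLL4), the H3K4 monomethyltransferase of enhancers. It read 66.3 and 64.3 CPM in controls, 81.4 and 71.4 CPM with shRNA1 and 77.1 and 77.5 CPM with shRNA2. All 4 knockdown libraries were above both controls, with a log2 fold change of 0.23 ± 0.06 (adjusted p = 0.0526). It was called by DESeq2 (adjusted p = 0.0176) and by edgeR without the filter on low counts (adjusted p = 0.00748) or without shRNA1 replicate 2 (adjusted p = 0.0252). It was also called with shRNA1 alone (log2 fold change 0.23, adjusted p = 0.0145) and with shRNA2 alone (0.24, adjusted p = 0.0135). With shRNA1 alone edgeR called 4 members and 9.99% of all genes, the other 3 being Smyd3, Kmt5a and Smyd5 (log2 fold changes 0.17, -0.17 and -0.21). With shRNA2 alone it called 4 members and 7.69% of all genes, namely Kmt2d, Kdm5b, Kdm3a and Kmt5c, with log2 fold changes of -0.17 for Kdm3a and -0.21 for Kmt5c. Without the filter 4.34% of all genes were called, and Kmt2d was the one member. Kdm5b, an H3K4 demethylase, read 121 and 120.0 CPM in controls, 124 and 127 CPM with shRNA1 and 95.5 and 102 CPM with shRNA2, so it was low with shRNA2 and not with shRNA1. Against the controls shRNA2 alone gave a log2 fold change of -0.29 (adjusted p = 0.00198) and shRNA1 alone 0.06 (adjusted p = 0.565); the difference between the hairpins was not tested.

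After transplant the members were also without a call by edgeR or DESeq2. edgeR called 0 of 50 members and 0% of all genes at an adjusted p below 0.05, and 2.24% of all genes and no member at an unadjusted p below 0.05 with a fold change above 1.5, the threshold the study set for these libraries. At an unadjusted p below 0.05 alone there were 0 members and 5.59% of all genes, while DESeq2 called 60 genes and 0 members. Log2 fold changes ran from -0.27 for Setd1b to 0.41 for Kdm6b. Kmt2d read 89.5 and 108 CPM in controls and 88.7 to 117 CPM with the Btaf1 shRNAs, which overlapped. Kdm6b read 5.09 and 4.92 CPM in controls, 6.58 and 4.78 CPM with shRNA1 and 9.31 and 5.88 CPM with shRNA2, which overlapped as well. The test of a difference between transplant and culture called 0 of 50 members by edgeR, where 0.21% of all genes were called. DESeq2 called 0 members in this test, where it called 308 of 13539 genes. At an unadjusted p below 0.05 edgeR gave 1 of 50 members, where 8.75% of all genes were, and this was Setd1b, with a difference of -0.46 in log2 fold change.

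Of the partner genes, Gfi1 fell by 0.69 on the log2 scale in culture (adjusted p = 0.00350) and the heterochromatin protein Cbx5 by 0.22 (adjusted p = 0.0169), and none was called after transplant. Other lists held few calls in culture: 1 of 8 HSC markers, 2 of 4 erythroid and 1 of 2 T and NK cell markers tested were lower, and 1 of 6 megakaryocyte markers was higher and 1 lower. Of 12 cell cycle genes 5 were lower in culture, with sums of 3481 and 3517 CPM in controls and 3077 to 3387 CPM in knockdown libraries. Their part in the values of the members was not tested.

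**Figure D3:**
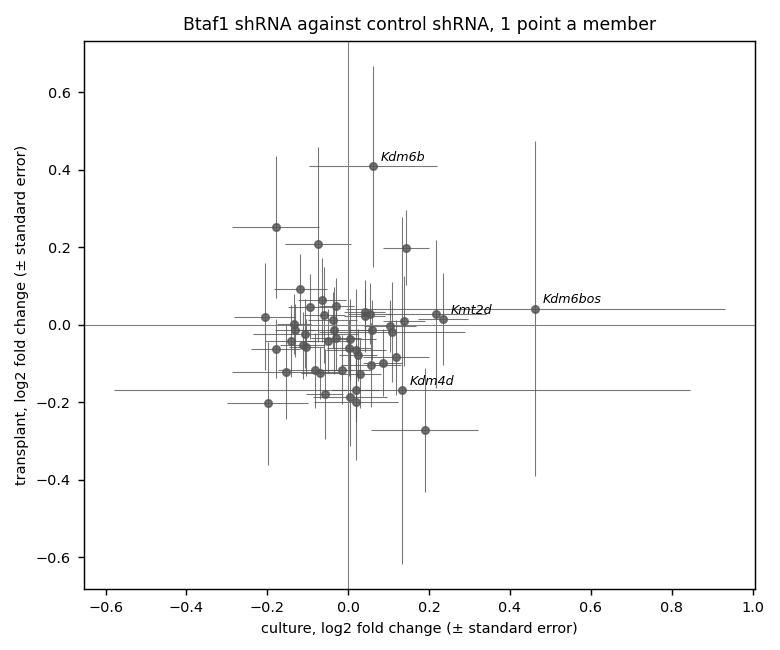
Log2 fold change of each of 50 members between Btaf1 shRNA and control shRNA, in cultured old HSCs on the horizontal axis and in transplanted old HSCs on the vertical axis, with bars for the standard error. No point was called by edgeR in either experiment; Kmt2d, called in culture by DESeq2, lies at 0.23 there and the low-count genes Kdm4d and Kdm6bos carry the widest bars.

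The third comparison set the young progenitors against one another. The 3 kinds of progenitor were fitted together, so each comparison shares libraries with the next, and all 6 libraries carry the same batch label. All 8 erythroid markers were higher in MEP than in CMP, with sums of 6127 and 6569 CPM against 251 and 254 CPM, and 7 of 9 granulocyte and monocyte markers were higher in GMP than in CMP, with sums of 62189 and 63337 CPM against 15068 and 18342 CPM. All 6 megakaryocyte markers tested were lower in MEP than in CMP, with sums of 24.5 and 25.3 CPM against 587 and 592 CPM. The libraries labelled MEP thus carried high erythroid and low megakaryocyte markers. Between MEP and CMP, 15 of 50 members were higher, where 28.9% of all genes were, and 19 were lower, where 35.6% of all genes were. A fold change of 1.5 was passed by 12 of them, where 46.7% of all genes passed it. Between GMP and CMP, 6 were higher (18.8% of all genes) and 16 lower (16% of all genes), with 4 past 1.5-fold (16.7% of all genes). With any 1 library left out, 3 to 5 were higher and 11 to 16 lower. Between MEP and GMP, 20 were higher in MEP (27.7% of all genes) and 13 lower (33.7% of all genes), with 10 past 1.5-fold (43.7% of all genes). Libraries did not overlap for 43, 38 and 43 of the 50 members in these comparisons, in this order. The share over all genes was not taken there. Kdm4dl had at most 1 count in a library, and Smyd1 had 4 counts in 1 GMP library and 0 in every other progenitor library.

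Among the called members, Kdm7a and Kmt5a had the largest rises in MEP against CMP. Kmt5a read 134 and 139 CPM in CMP, 174 and 190.0 CPM in GMP and 285 and 276 CPM in MEP. The 3 progenitors did not overlap, with log2 fold changes against CMP of 1.04 ± 0.06 in MEP (adjusted p = 1.62e-09) and 0.42 ± 0.06 in GMP (adjusted p = 6.96e-05). Kdm7a read 19.0 and 17.8 CPM in CMP, 17.3 and 17.1 CPM in GMP and 43.8 and 43.7 CPM in MEP. It was high in MEP alone of the 3, with a log2 fold change of 1.25 ± 0.10 against CMP (adjusted p = 1.17e-07) and 1.35 ± 0.10 against GMP (adjusted p = 6.22e-08). Setd6, which methylates the RelA subunit of NF-kB, read 44.9 and 43.3 CPM in CMP, 41.2 and 43.6 CPM in GMP and 81.3 and 85.4 CPM in MEP (log2 fold change against CMP 0.92 ± 0.07, adjusted p = 1.18e-07). Dot1l read 41.0 and 41.6 CPM in CMP, 32.1 and 36.6 CPM in GMP and 52.3 and 53.4 CPM in MEP, with log2 fold changes against CMP of 0.36 in MEP (adjusted p = 0.00263) and -0.27 in GMP (adjusted p = 0.0317). The call in GMP was lost without either CMP library or GMP replicate 1, with an adjusted p of up to 0.249.

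The H3K9 methyltransferases separated into those that rose and those that fell in MEP, and all 6 were called against CMP. Over all genes 28.9% were higher and 35.6% lower. Suv39h2 read 23.5 and 28.3 CPM in CMP and 41.9 and 42.3 CPM in MEP (log2 fold change 0.70 ± 0.10, adjusted p = 5.22e-05), and Setdb2 27.01 and 24.3 CPM and 40.8 and 44.2 CPM (0.73 ± 0.10, adjusted p = 1.81e-05). Setdb1 and Suv39h1 were higher by 0.36 and 0.24 on the log2 scale. Ehmt2 (G9a) fell, from 93.3 and 97.1 CPM in CMP to 62.2 and 62.4 CPM in MEP (log2 fold change -0.61 ± 0.07, adjusted p = 2.14e-06), while GMP read 109 and 100.4 CPM. Ehmt1, its partner, had a log2 fold change of -0.35. None of these genes overlapped between MEP and CMP, as for 43 of the 50 members. Between GMP and CMP the one called was Suv39h1 (log2 fold change 0.28 ± 0.05, adjusted p = 0.000638).

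Of the genes grouped as H3K4 methyltransferases, 5 of 8 were lower and 2 higher in MEP than in CMP. Over all genes 35.6% were lower and 28.9% higher. Kmt2a read 60.5 and 63.1 CPM in CMP, 37.8 and 42.1 CPM in GMP and 27.9 and 34.2 CPM in MEP. Both were below CMP, with log2 fold changes of -0.99 ± 0.10 in MEP (adjusted p = 1.52e-06) and -0.63 ± 0.10 in GMP (adjusted p = 0.000334). Kmt2c, which with Kmt2d places H3K4me1 at enhancers, read 68.5 and 69.4 CPM in CMP, 45.6 and 42.4 CPM in GMP and 48.3 and 51.9 CPM in MEP (log2 fold changes -0.46 in MEP and -0.65 in GMP). Kmt2d, Kmt2e and Setd7 were lower in MEP too (log2 fold changes -0.52, -0.46 and -0.62), and of these Kmt2e was also lower in GMP (-0.37). Kmt2b rose from 15.7 and 14.9 CPM in CMP to 23.2 and 23.3 CPM in MEP (log2 fold change 0.61 ± 0.12, adjusted p = 0.000774). Setd1a was the other one higher (0.59 ± 0.18, adjusted p = 0.00959), a call lost without CMP replicate 1 or 2 or MEP replicate 1, where its adjusted p was 0.0513, 0.0555 and 0.134. In the list of COMPASS and MLL complex subunits, 9 of 11 were higher in MEP than in CMP and 1 was lower, the menin gene Men1 (log2 fold change -0.31). The highest was Psip1 (0.79), whose product tethers MLL to chromatin, and in GMP it was lower than in CMP (-0.48).

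Among the H3K4 demethylases, Kdm5b read 134 and 126 CPM in CMP, 75.0 and 88.8 CPM in GMP and 106 and 112 CPM in MEP. GMP was lowest, with log2 fold changes against CMP of -0.67 ± 0.08 in GMP (adjusted p = 2.60e-05) and -0.25 ± 0.08 in MEP (adjusted p = 0.0112). The call in MEP was lost without CMP replicate 1 (adjusted p = 0.0540) or MEP replicate 1 (adjusted p = 0.0636). Kdm5a had log2 fold changes of -0.40 in GMP and -0.22 in MEP, the latter lost without MEP replicate 2 (adjusted p = 0.0537). Kdm5c was called higher in MEP (0.15), and leaving out any 1 of the 6 libraries lost that call (adjusted p up to 0.218). Kdm5d, on the Y chromosome, was lower in MEP (-0.31), and the call was lost without CMP replicate 2 (adjusted p = 0.125) or MEP replicate 2 (adjusted p = 0.0591). Of the LSD1 and CoREST partners, Gfi1b was higher in MEP than in CMP by 2.89 on the log2 scale and lower in GMP (-4.24), and Gfi1 was higher in GMP (1.76) and lower in MEP (-7.92).

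The H3K9 and H3K36 demethylases were not called higher in MEP or GMP than in CMP, and 4 of 9 were lower in each. Over all genes 35.6% were lower in MEP and 16% in GMP. Kdm3b read 76.2 and 79.6 CPM in CMP, 65.0 and 65.5 CPM in GMP and 40.1 and 47.7 CPM in MEP (log2 fold change in MEP -0.83 ± 0.09, adjusted p = 1.38e-06; in GMP -0.26 ± 0.08, adjusted p = 0.0305). The call in GMP was lost without any 1 of the CMP or GMP libraries, with an adjusted p of up to 0.140. Kdm2a, an H3K36 demethylase that binds CpG islands, read 119 and 121 CPM in CMP, 95.9 and 105 CPM in GMP and 67.7 and 76.8 CPM in MEP (log2 fold change in MEP -0.73 ± 0.07, adjusted p = 1.11e-06). Both were lowest in MEP, without overlap. Kdm4a was low in GMP instead, at 24.3 and 25.8 CPM against 34.1 and 37.2 CPM in CMP and 35.3 and 42.4 CPM in MEP (log2 fold change in GMP -0.51 ± 0.11, adjusted p = 0.00249). Kdm4b was lower in MEP (-0.55) and Kdm3a in both (-0.49 in MEP and -0.40 in GMP).

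Of the H3K27me3 demethylases, Kdm6a read 59.5 and 60.6 CPM in CMP, 43.5 and 46.8 CPM in GMP and 52.8 and 64.3 CPM in MEP, and was lower in GMP than in CMP (log2 fold change -0.41 ± 0.09, adjusted p = 0.00405). Kdm6b was low throughout, at 3.28 and 4.89 CPM in CMP, 2.58 and 1.72 CPM in GMP and 2.596 and 3.55 CPM in MEP. Its call in GMP (-0.92 ± 0.30, adjusted p = 0.0296) was lost without CMP replicate 2 (adjusted p = 0.268) or GMP replicate 2 (adjusted p = 0.182). Among the H3K36 methyltransferases, Nsd3 rose from 77.8 and 80.4 CPM in CMP to 104 and 106 CPM in MEP and fell to 64.7 and 65.1 CPM in GMP (log2 fold changes 0.41 and -0.28). Setd2 read 109.9 and 112 CPM in CMP, 88.8 and 99.4 CPM in GMP and 89.9 and 90.0 CPM in MEP, with log2 fold changes of -0.24 in GMP and -0.30 in MEP. Its call in GMP was lost without CMP replicate 2 or GMP replicate 1, with an adjusted p of up to 0.152. Nsd2 read 115 and 116 CPM in CMP and 128 and 143 CPM in GMP, and its call in GMP (0.23) was lost without either CMP library or GMP replicate 2, with an adjusted p of up to 0.163. Ash1l was lower in both (-0.54 in MEP and -0.56 in GMP).

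Set directly against GMP, MEP was higher by more than 1.5-fold for Kdm7a, Setd6, Setd4, Nsd3, Kdm4a, Kmt5a, Dot1l and Setd1a. Their log2 fold changes were 1.35, 0.97, 0.76, 0.69, 0.63, 0.63, 0.62 and 0.60, and the call of Setd1a was lost without GMP replicate 1 (adjusted p = 0.0537) or MEP replicate 1 (adjusted p = 0.134). Setd7 and Ehmt2 were lower by more than 1.5-fold (log2 fold changes -0.76 and -0.75), followed by Kmt2d, Kdm3b and Smyd4 (-0.58, -0.57 and -0.51).

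Cell cycle genes also differed between the progenitors. Of 12 genes, 10 were higher and 2 lower in MEP than in CMP, and 7 were higher and 2 lower in GMP than in CMP. Their sums were 3786 and 3821 CPM in CMP, 4364 and 4472 CPM in GMP and 5151 and 5280 CPM in MEP. The part of the cell cycle and of the lineage markers in the members' values was not tested. Among heterochromatin readers and SETDB1 partners 2 of 7 were higher and 2 lower in MEP than in CMP, Cbx5 most (log2 fold change 1.02), and among JmjC and PRDM genes outside the rule 4 of 15 were higher and 6 lower.

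**Figure D4:**
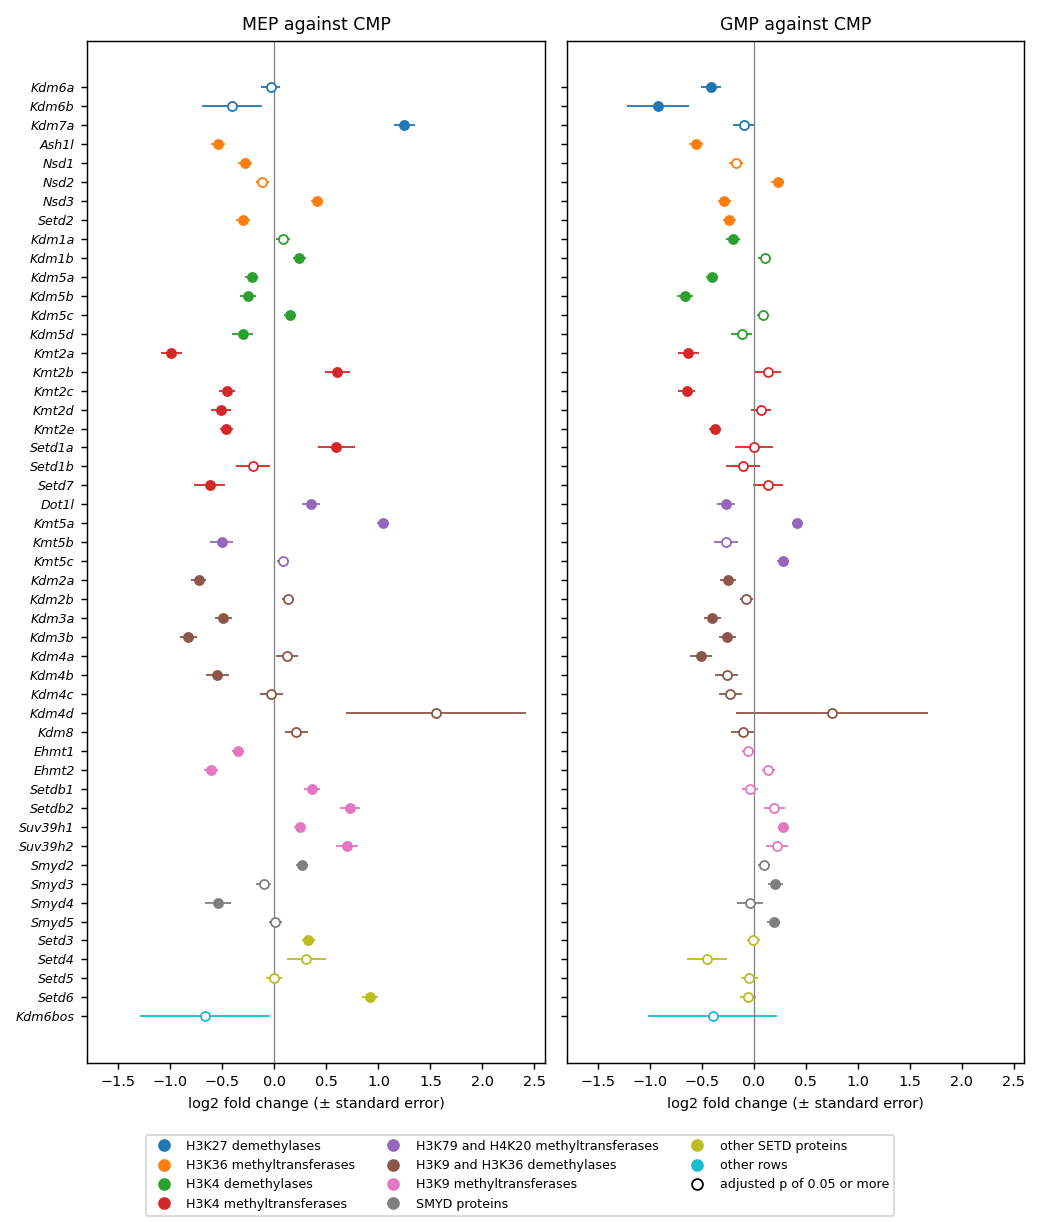
Log2 fold change ± standard error of 50 members in MEP (left) and GMP (right) against CMP, grouped and coloured by the lysine the enzyme acts on, with open circles for an adjusted p of 0.05 or more. Kdm7a at 1.25 and Kmt5a at 1.04 lie farthest right among the called members in MEP, and Kmt2a at -0.99 farthest left.

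The last comparison set young HSCs against CMP, their progeny. The libraries come from 2 experiments, and the labels give total RNA for the HSCs and polyA RNA for the CMP, so experiment and cell type cannot be told apart. All 8 HSC markers were higher in HSCs, with a median log2 fold change of 5.02, and all 12 cell cycle genes were lower, with a median of -3.13. B cell markers were higher too, 7 of 8, and 7 of 9 granulocyte and monocyte markers were lower. The part of these lists in the members' values was not tested. Of 51 members tested, 20 were higher in HSCs, where 47.6% of all genes were, and 22 were lower, where 33.5% of all genes were. A fold change of 1.5 was passed by 25 members, 12 higher and 13 lower, where 64.2% of all genes passed it. The median log2 fold change was 0.05 over the members and 0.33 over all genes, so a member at 0 lies below the middle of all genes.

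Of 8 genes grouped as H3K4 methyltransferases 6 were called higher in HSCs and none lower, each of the 6 by more than 1.5-fold. Over all genes 47.6% were higher and 33.5% lower. The other 2 of the 8 were Setd1a (log2 fold change 0.31, adjusted p = 0.0532) and Kmt2e (0.01, adjusted p = 0.909). Setd1a was called higher without young HSC replicate 4 (adjusted p = 0.0290). In a joint normalization, Kmt2a read 209, 202, 211 and 200.2 CPM in HSCs and 77.9 and 81.1 CPM in CMP, a 2.58-fold difference (log2 fold change 1.37 ± 0.05, adjusted p = 3.80e-14). Setd7, a methyltransferase of H3K4 and of several other proteins, read 35.3 to 40.0 CPM and 19.8 and 17.2 CPM (log2 fold change 1.00 ± 0.09, adjusted p = 1.63e-08). Kmt2c, Kmt2d, Kmt2b and Setd1b were higher by 0.96, 0.93, 0.78 and 0.73 on the log2 scale, and for none of the 6 did the groups overlap. Groups did not overlap for 45 of the 51 members tested, and the share over all genes was not taken. Of the partner subunits of COMPASS and MLL complexes, 9 of 11 were lower in HSCs and 1 was higher, the coactivator Ncoa6 (log2 fold change 0.64); Dpy30 and Paxip1 fell by 1.29 and 1.05 on the log2 scale.

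All 6 H3K9 methyltransferases were lower in HSCs, where 33.5% of all genes were. Suv39h1 read 68.1, 70.4, 70.7 and 70.0 CPM in HSCs and 212 and 211 CPM in CMP, a 3.03-fold difference (log2 fold change -1.60 ± 0.05, adjusted p = 1.86e-15). Suv39h2 read 11.1 to 12.5 CPM and 30.3 and 36.4 CPM (log2 fold change -1.50 ± 0.10, adjusted p = 3.04e-10). Both groups stood well apart for each gene. Setdb2, Setdb1 and Ehmt1 had log2 fold changes of -0.91, -0.67 and -0.59, each past 1.5-fold, and Ehmt2 one of -0.25. Of 7 heterochromatin readers and SETDB1 partners 4 were lower in HSCs and 1 was higher. The heterochromatin proteins Cbx3 and Cbx1 and the SETDB1 partner Trim28 were among the lower ones (-1.63, -1.19 and -0.99).

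The largest fall among the other writers was at Kmt5a, with 55.7 to 65.8 CPM in HSCs and 172 and 178 CPM in CMP (log2 fold change -1.53 ± 0.06, adjusted p = 6.25e-14), whereas Kmt5b was higher in HSCs (0.68). Among demethylases, Kdm7a read 52.5 to 62.3 CPM in HSCs and 24.5 and 22.9 CPM in CMP (log2 fold change 1.24 ± 0.08, adjusted p = 2.13e-10). Kdm6b read 11.5 to 13.8 CPM and 4.23 and 6.29 CPM (1.28 ± 0.17, adjusted p = 1.45e-06), and Kdm6bos, which shares its locus, was higher by 1.92. Kdm8, also named Jmjd5, was lower in HSCs, at 10.0 to 13.0 CPM against 23.6 and 23.8 CPM (-1.07 ± 0.12, adjusted p = 1.92e-07). Both amine oxidases, Kdm1a (LSD1) and Kdm1b (LSD2), were lower too (-0.65 and -0.77), as was the H3K36 demethylase Kdm2b (-0.80).

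Enzymes of the profiled marks with smaller differences were Kdm5a, higher in HSCs (log2 fold change 0.29), Kdm5c, lower (-0.33), and the H3K36me3 writer Setd2, lower (-0.15), a call lost without CMP replicate 2 (adjusted p = 0.0550). Kdm5b was higher by 0.12, a call lost without young HSC replicate 1 (adjusted p = 0.0554) or CMP replicate 2 (adjusted p = 0.326). Kdm6a had a log2 fold change of 0.05 (adjusted p = 0.479) and Kdm5d one of 0.14 (adjusted p = 0.114). Kdm5d was called higher without young HSC replicate 3 (adjusted p = 0.0417) or CMP replicate 2 (adjusted p = 0.0351).

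Smyd1 and Kdm4d were close to the limit of detection. Smyd1 had 49 counts over the 4 HSC libraries and 0 over the 2 CMP libraries. With 3 counts over the CMP group as the floor, the ratio of CPM was 13.1. The exact 95% binomial interval of both counts, which covers counting error only, starts at 10.2-fold. Kdm4d had 124 counts over the HSCs and 10 over the CMP, a ratio of CPM of 9.92 with a 95% interval of 5.22 to 21.2 that covers counting error only. The remaining members past 1.5-fold were lower in HSCs, namely Setd6, Smyd5 and Smyd4 with log2 fold changes of -0.92, -0.74 and -0.72.

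**Figure D5:**
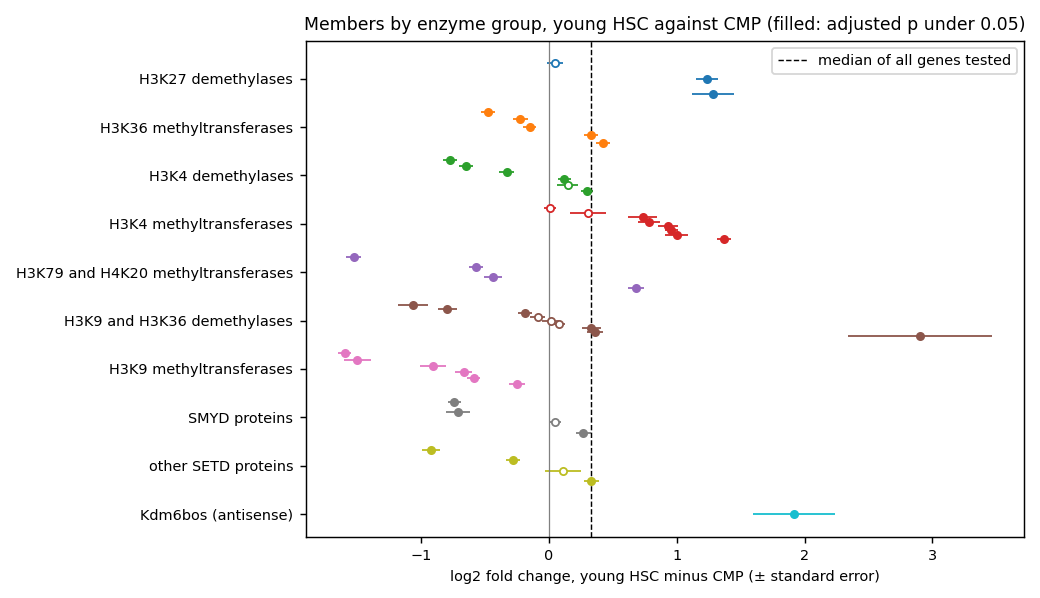
Log2 fold change ± standard error of members in young HSCs against CMP, by enzyme group, filled where the adjusted p is under 0.05, with a dashed line at the median of all genes tested (0.33); Smyd1 is left out because its CMP libraries hold 0 counts. The 6 H3K9 methyltransferases lie left of 0 and 6 of 8 H3K4 methyltransferases lie to the right of the dashed line as called members.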

How the data were processed

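Gene expression was measured by RNA-seq in 30 libraries, and chromatin by ATAC-seq and by ChIP-seq of histone marks. The authors trimmed reads with cutadapt, aligned them with STAR to mm10 and counted reads per gene with featureCounts on GENCODE M22, and they deposited raw counts; settings for strand and multi-mapped reads: not given in the sources used here. ATAC-seq counts per consensus region, from reads aligned with BWA, were deposited raw as well. For histone marks the authors deposited a signal per peak, from libraries scaled to a fixed number of reads, beside fold changes of their own that were not used. The H3K36me3 file holds positions alone and was not used, and 8 per-sample columns or files of old ATAC-seq and ChIP-seq libraries, whose samples the labels used here do not give, were left out. The 92 spike-in rows were left out of library sizes.

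Members were matched by symbol; 2 of them, Setdb1 and Setdb2, match the written rule only when case is ignored. The members and lists were chosen with earlier results of these data known. Genes were tested with edgeR 4.0.16 (robust quasi-likelihood, TMM, filterByExpr; R 4.3.3) on all genes of an experiment, with Benjamini-Hochberg adjustment over all genes tested and a threshold of 0.05. CPM values use TMM factors within an experiment. The progenitors were fitted together, and both shRNAs were set against the control shRNA. ATAC-seq regions above 1.5 CPM in at least 4 libraries were tested with edgeR at an adjusted p of 0.01. H3K27ac was tested with limma 3.58.1 on log2(signal + 0.5), so that a log2 difference is understated at low signal. DESeq2 1.42.0, other filters and scalings, a replicate block and leaving out each library were the alternatives. Named members were those past 1.5-fold, the 5 largest rises and falls among called members, the enzymes of the profiled marks and those not detected; other members with values were picked after their values were seen. Positions came from GENCODE M21 (mm10), with which all 52 members were matched. The tests were checked on simulated data, and Python 3.11.15 was used for summaries. Counting intervals and floors cover counting error only, and replicates within a group differed by more than counting noise (chi-square per gene 4.42 to 17.7 over 43 pairs).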

Additional observations from a re-analysis of the deposited data

Results flagged for a closer look

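In 92 groups of 4 to 8 libraries, 3 members had a library far from the others of its group by Dixon's criterion, which chance meets in about 1 in 20 groups. Kdm6b stood at 14.7 CPM in old HSC replicate 8, where the other 7 old libraries held 10.3 to 12.1 CPM. Accessibility at the Setd7 promoter was 70.3 CPM in old replicate 6, where the other old libraries held 75.4 to 75.9 CPM. Accessibility at the Smyd4 promoter was 26.9 CPM in young replicate 3, where the other young libraries held 30.0 to 30.4 CPM, and this library was still above every old one.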

How the results depend on the processing

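Of the alternatives to the age comparison, leaving out the filter on low counts left 3 members higher and 4 lower, and a replicate block left 2 higher and 3 lower. A fold change above 1.5 left 0 higher and 0 lower with age, 7 higher and 5 lower in MEP against CMP, 0 and 4 in GMP against CMP, 8 and 2 in MEP against GMP, 12 and 13 in young HSCs against CMP, and 0 less accessible promoters. In culture, 1 member was higher by DESeq2, 1 without the filter, 2 higher and 2 lower with shRNA1 alone, and 1 higher and 3 lower with shRNA2 alone. With the GC correction, chosen after the data were seen, 5 promoters were more and 6 less accessible, and the log2 fold changes of Kdm4b, Setd7 and Setd5 reversed to 0.031, 0.0025 and 0.036. Over the log2 fold changes of the members chosen by the naming rule in each comparison, 2193 values kept their direction and side of the threshold, 123 lost a call, 13 gained one and 3 reversed; apart from the values named here the cause was not tested.

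Leaving out 1 library at a time gave 4 to 4 members higher and 5 to 9 lower with age (5 without young replicate 1 or 4, 9 without old replicate 2), and 0 to 1 higher in culture (1 without shRNA1 replicate 2). It gave 12 to 14 higher and 17 to 19 lower in MEP against CMP, 3 to 5 higher (3 without CMP replicate 1 or GMP replicate 2) and 11 to 16 lower in GMP against CMP, 14 to 20 higher and 10 to 13 lower in MEP against GMP, 19 to 21 higher and 21 to 22 lower in young HSCs against CMP, and 13 to 17 less accessible promoters (13 without old replicate 6 or young replicate 1). All other counts stayed at 0.

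Libraries with the same replicate number had correlations of their deviations of -0.22 to 0.08 with age, -0.04 to 0.05 in culture, -0.15 to 0.21 after transplant and -0.01 to 0.01 in young HSCs and CMP, so these numbers were not taken as pairs. In the progenitors they were 0.05 to 0.25, and as not every pair was above 0.1 the block was not used there either. With age the replicate block took the calls of Smyd2, Setd3, Setd4, Kmt2a, Kdm3a and Kdm4a, with an adjusted p from 0.0505 for Kdm4a to 0.150 for Setd4. In that fit an old library whose number no young library shares says nothing about age. The lost calls therefore come from a fit that rests on fewer old libraries. The block left 0 calls in both knockdowns and in H3K27ac, and shared 34, 22 and 33 calls with the fits without it in the 3 progenitor comparisons. It shared 41 of 42 in young HSCs against CMP, where young libraries without a CMP library of their number likewise say nothing. For accessibility no replicate block was fitted, since the ATAC-seq groups share no replicate numbers. Without the filter the median of all genes in young HSCs against CMP moved from 0.33 to 1.94 on the log2 scale, and without CMP replicate 1 or 2 by 0.23 or 0.21.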
